A study of Bos taurus with 6 samples.

Results

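Transcript levels of 2 epoxide hydrolases, EPHX1 and EPHX2, and of 3 genes annotated to the making of prostaglandin F, LOC782922, LOC784927 and CBR1, were followed in whole blood of cattle with and without the fat-1 transgene. These 5 genes, of 25325 gene names on the array, are measured by 8 of its 43653 probes, chosen by gene name or by an annotation as a prostaglandin F synthase, and each probe was followed separately. The set was put together with the difference between the groups already known, so levels and differences of its members are a description and carry no test. Blood was taken from the jugular vein of 6 female cattle, 1 array an animal. The 3 animals of the fat-1 group carry the fat-1 gene of Caenorhabditis elegans and were 3.5, 3 and 3 years old. The 3 wild type animals have no transgene named in their labels and were all 3 years old. The labels give neither the promoter of the transgene nor the number of founder animals. All fat-1 arrays were on slide 1 and all wild type arrays on slide 2, which means that a difference between slides and one between the groups cannot be told apart in any value given here.

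The FAT-1 enzyme turns omega-6 into omega-3 fatty acids, and polyunsaturated fatty acids of both kinds are the raw material of oxylipins, the oxygenated lipid mediators. Cytochrome P450 epoxygenases turn arachidonic acid and its omega-3 relatives into epoxides, and the soluble epoxide hydrolase encoded by EPHX2 opens these epoxides to diols, which ends much of their action. The microsomal enzyme encoded by EPHX1 is known mainly for opening epoxides of foreign compounds. Prostaglandin F is made in another branch, from the cyclooxygenase product prostaglandin H2 or from prostaglandins D2 and E2, by aldo-keto reductases and by carbonyl reductases such as CBR1. It is best known in cattle as the signal that ends the life of the corpus luteum.

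The probes decide what these measurements can show. The 3 sequences below, printed 5′ to 3′, lie in EPHX1 and EPHX2 and are shown because each gene has probes that differ in signal. Capitals in the first mark 42 bases, at positions 12 to 53 of the probe, that it shares letter for letter with another probe of the array. Capitals in the third, of which only the last 30 bases are given, mark AATAAA, the hexamer that commonly stands just before the end of a messenger RNA.
EPHX1 A_73_P032891: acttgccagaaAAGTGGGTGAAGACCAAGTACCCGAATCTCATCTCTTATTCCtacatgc
EPHX1 A_73_P269321: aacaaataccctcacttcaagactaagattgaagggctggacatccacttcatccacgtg
EPHX2 A_73_117299: cagagatgagagctcctttattcAATAAAg

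The hexamer AATAAA occurs on the printed strand of 9.35% of all 43653 probes of this length and on the opposite strand of 3.46%. In the EPHX2 probe it begins at position 54 of 60. The other EPHX2 probe, A_73_P256871, has no AATAAA and covers 3952 bases of the genome with its 60 bases, so it runs across at least 1 intron. No exon or untranslated region was assigned, because no annotation of the build Btau_3.1, on which the files give positions, was used here.

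The probes of LOC782922 overlap by 34 bases and differ there at 1 base. The difference is A15G, counted from 1 at the 5′ end of the 30 bases below, with the base of A_73_P168292 first, and capitals mark it. The pair is shown because both probes read nearly the same stretch and are no independent measurements of the transcript.
LOC782922 A_73_P168292: ctatacttggtggaAgtgtttaaaagaagt
LOC782922 A_73_P073941: ctatacttggtggaGgtgtttaaaagaagt

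Levels below are log2 processed intensity less the 75th percentile of each array, so that 0 is the level of that percentile. Differences are the mean of fat-1 animals minus that of wild type animals, on the same log2 scale, with the standard error (SE) of a limma fit over 26826 probes. A probe entered the fit where 3 or more of the 6 arrays called it well above background. Of the 8 member probes 7 were kept by this filter. The eighth is A_73_P256871 of EPHX2, which was well above background in no animal. The LOC782922 probes were kept through the fat-1 animals alone, the group in which they are high, so that their being among the 7 says nothing by itself. Probes differ in how strongly they bind, so levels are compared between animals at a probe and not between probes.

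EPHX2 stood lower on average in fat-1 blood at the probe that holds AATAAA, on chromosome 8 at 78782784 to 78782843. Its level was -4.22, -4.11 and -3.02 in fat-1 blood, in the order of the replicate numbers, and -2.40, -2.28 and -3.30 in wild type blood. The groups overlapped, because fat-1 replicate 3 lay above wild type replicate 3. The means were -3.78 ± 0.67 (SD, n = 3) and -2.66 ± 0.56, a difference of -1.12 ± 0.39 (SE). Leaving out fat-1 replicate 3 gave -1.51, leaving out replicate 1 of that group gave -0.90, and the value was below 0 in all 15 other settings tried. Some of these settings, such as another filter or a block of replicate number, cannot change the difference itself, so their sign was fixed in advance. The spot signal was low throughout, at 2.28 to 5.48 times the local background in fat-1 animals and 4.39 to 5.58 times in wild type animals. The other EPHX2 probe, on chromosome 8 at 78754141 to 78758092, had levels of -7.36 to -6.63 in fat-1 and -7.04 to -6.78 in wild type animals, all near background. It gives no second reading of the difference.

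EPHX1 was well above background in all animals at both of its probes, and its groups had nearly the same mean. At A_73_P032891, on chromosome 16 at 25897081 to 25897140, levels were 0.47, 1.49 and 0.86 in fat-1 blood against 0.53, 1.54 and 0.67 in wild type blood. One animal of each group, replicate 2, lay clearly above the others, and the groups overlapped over nearly their whole range. The means were 0.94 ± 0.52 (SD, n = 3) and 0.92 ± 0.55, with a difference of 0.02 ± 0.35. The sign of this small difference turned with the arrays used, from -0.25 when fat-1 replicate 2 was left out to 0.34 when the wild type animal of that number was. The second EPHX1 probe, A_73_P269321, spans 6247 bases of chromosome 16 from 25882052 to 25888298. Its levels ran from -3.05 to -2.76 in fat-1 and from -2.99 to -2.55 in wild type animals, with a difference of -0.11 ± 0.22. Over the 6 arrays the EPHX1 probes had a Pearson r of 0.609, as a description over arrays that share their scaling.

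The probe that shares 42 bases with EPHX1 is named only by a tentative consensus, TC361213, which is annotated by likeness to rabbit microsomal epoxide hydrolase. The files place it on chromosome 25 at 27950257 to 27950316 and not beside EPHX1. Its levels of 0.52, 1.49 and 0.91 in fat-1 and 0.58, 1.59 and 0.70 in wild type animals followed those of A_73_P032891 animal by animal (r = 0.999 over 6 arrays). Whether it reads a separate gene cannot be told from shared bases, and its difference was 0.01 ± 0.35.

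LOC782922, annotated as similar to prostaglandin F synthetase II, had levels higher in fat-1 blood at both probes in processed intensity, with no overlap of the groups. At A_73_P168292, on the minus strand of chromosome 13 at 43876147 to 43876206, processed intensity was 129, 82.7 and 141 in fat-1 blood against 12.5, 12.7 and 29.5 in wild type blood. On the log2 scale these are -2.47, -3.17 and -2.92 against -5.89, -5.59 and -4.91. Every fat-1 animal lay above every wild type animal. The probe was well above background in all 3 fat-1 animals and in no wild type animal, so wild type blood has only an upper limit. The limit on each wild type array was the lowest signal called well above background there, or the probe's own signal where that was higher, so it differs between probes. Against the mean of these limits, the mean of fat-1 animals was at least 5.11-fold higher. The fitted difference was 2.61 ± 0.31, from means of -2.85 ± 0.36 (SD, n = 3) and -5.46 ± 0.50.

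The overlapping probe A_73_P073941, at 43876121 to 43876180, had lower signal and the same order of the groups. Its levels were -3.00, -4.12 and -3.49 in fat-1 blood against -5.74, -6.57 and -5.26 in wild type blood, again without overlap and with no wild type animal well above background. By the same rule the mean of fat-1 animals was at least 3.99-fold higher, with a fitted difference of 2.32 ± 0.39. Animals ranked alike in part, with r = 0.959 between the probes over 6 arrays, which the group difference and the shared bases both feed.

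How large the LOC782922 difference is differed between processed intensity and normexp correction with its offset of 50. The offset is added to every signal before the log2, and an added constant narrows log2 differences, most at dim spots. How much of the drop comes from the offset and how much from the correction was not tested. The folds above hold for processed intensity only. With normexp correction of the mean spot signal, the difference was 0.66 at A_73_P168292 and 0.36 at A_73_P073941, below both limits, and the groups overlapped at each. EPHX2, with -0.85, then had a larger difference than either. The levels at A_73_P168292 were then -1.88, -2.33 and -2.34 in fat-1 and -2.30, -3.02 and -3.20 in wild type animals. Wild type replicate 1 lay among the fat-1 animals, and at A_73_P073941 too the overlap came from that array alone. On that array normexp gave -2.31 even at the EPHX2 probe A_73_P256871, which was well above background in no animal. The other arrays had -3.84 to -3.17 at that EPHX2 probe. At the kept EPHX2 probe, A_73_117299, normexp gave -1.49 in wild type replicate 1, against -1.73 and -2.50 in the other wild type animals. How much of the overlap, or of the order of EPHX2 and LOC782922, rests on background of the array of wild type replicate 1 was not tested. Before either correction, the mean spot signal at A_73_P168292 was 4.39 to 6.35 times the local background in fat-1 animals and 1.73 to 2.48 times in wild type animals. At A_73_P073941 these ratios were 2.51 to 3.71 and 1.22 to 2.10. In these uncorrected ratios the groups did not overlap at either probe.

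LOC784927, annotated as similar to a prostaglandin F synthase-like1 protein and unmapped in the files, was measured clearly in all animals. Levels at A_73_P205932 were -0.27, -0.69 and -0.34 in fat-1 and -1.22, -0.40 and -1.47 in wild type animals. Wild type replicate 2 lay among the fat-1 animals and the other wild type animals lay below them. The difference was 0.60 ± 0.30, from means of -0.43 ± 0.23 (SD, n = 3) and -1.03 ± 0.56. It was 0.91 when wild type replicate 2 was left out and 0.38 when replicate 3 of that group was.

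CBR1, the carbonyl reductase that converts prostaglandin E2 to F2 alpha, was close to the limit of detection. At A_73_P051071, on chromosome 1 at 151608394 to 151608453, it was well above background in 1 of 3 fat-1 and 2 of 3 wild type animals. Levels were -5.11, -5.46 and -4.64 in fat-1 blood against -4.40, -3.58 and -4.60 in wild type blood. The groups did not overlap, but fat-1 replicate 3 and wild type replicate 3 lay 0.04 apart on the log2 scale, within the spread of either group. They overlapped with quantile scaling, in the authors' deposited value table and with normexp correction. The difference was -0.88 ± 0.33, from means of -5.07 ± 0.41 (SD, n = 3) and -4.19 ± 0.54, and it was -0.57 when wild type replicate 2 was left out. With normexp correction it was -0.64.

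**Figure D1:**
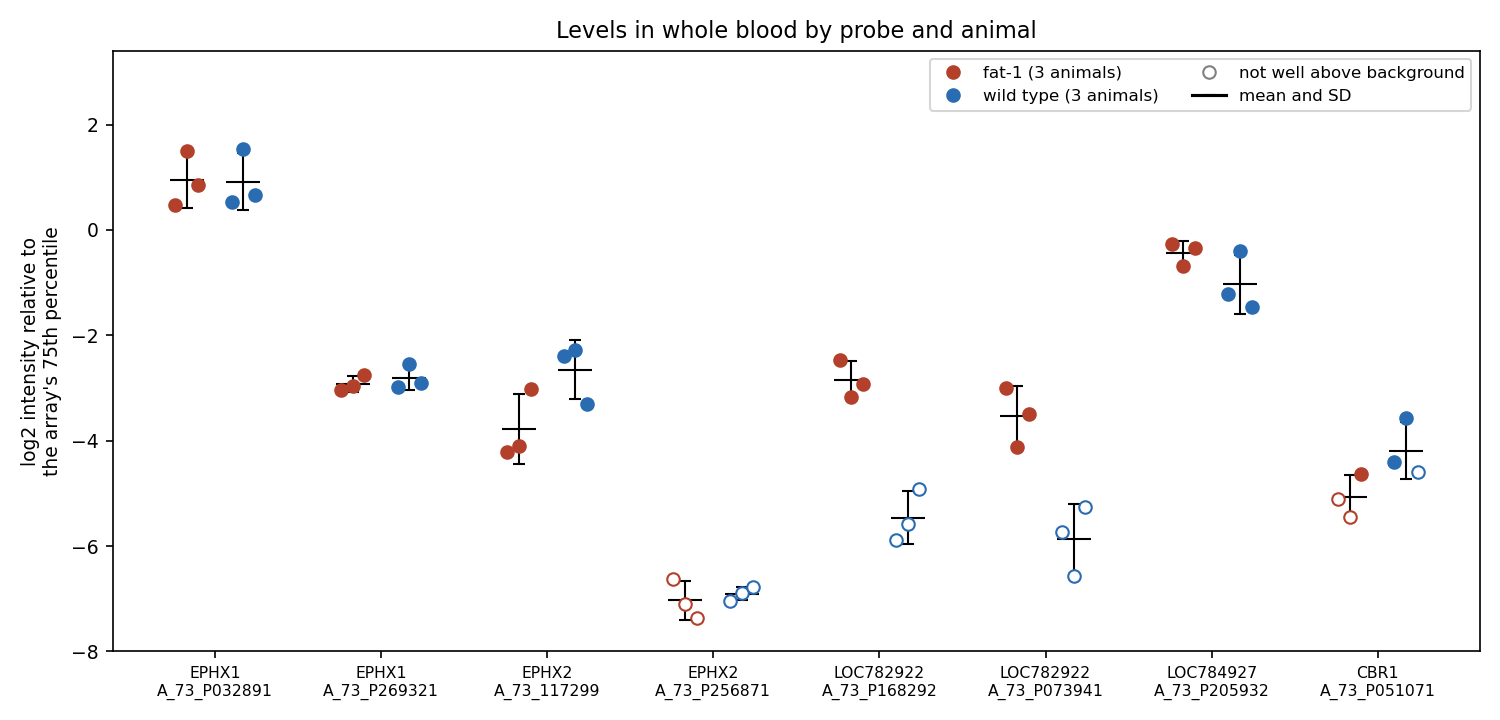
Level of each member probe in every animal, as log2 processed intensity less the 75th percentile of each array (vertical axis), by probe (horizontal axis), for fat-1 (red) and wild type (blue) blood. Open points were not well above background, and black bars are the mean and SD over 3 animals. Fat-1 and wild type animals separate at both LOC782922 probes, where wild type points are open, and lie on top of each other at EPHX1.

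In the plot of levels by animal, mean differences lay above 0 at both LOC782922 probes and at LOC784927, below 0 at EPHX2 and CBR1, and within 1 SE of 0 at EPHX1. Individual animals overlapped between the groups at 4 of the 7 kept probes, those of EPHX1, EPHX2 and LOC784927. Groups did not overlap at 3 of the 7, 2 of them higher in fat-1 blood, against 19.6% of all probes, 6.92% higher and 12.7% lower. Since the members were chosen with this contrast in view, and the LOC782922 probes were kept through fat-1 animals alone, nothing is read from this count.

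**Figure D2:**
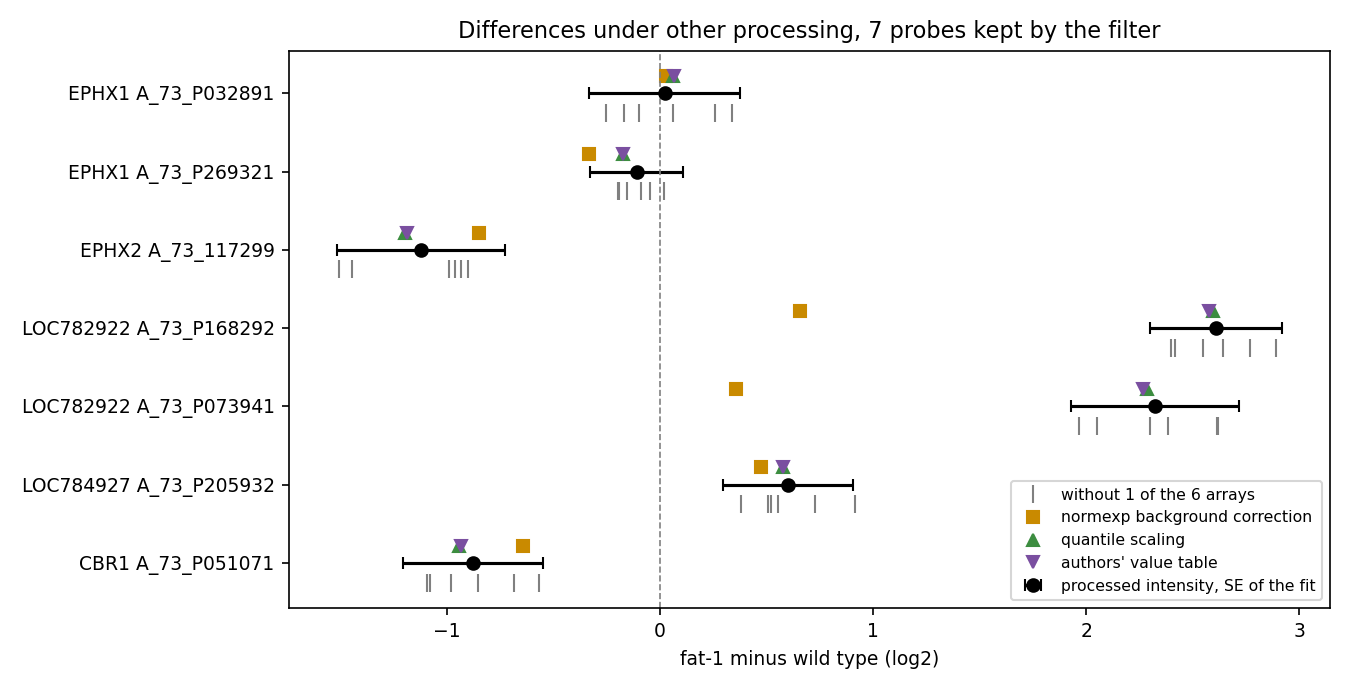
Fat-1 minus wild type difference on the log2 scale (horizontal axis) of the 7 kept probes (vertical axis). Black points with bars are the fit on processed intensity with its SE, coloured symbols are other corrections or scalings, and grey ticks leave out 1 array each. Differences of LOC782922 are 2.61 and 2.32 in processed intensity and 0.66 and 0.36 with normexp at an offset of 50. Those of EPHX2 run from -1.51 to -0.85.

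LOC782922 lies in a cluster of aldo-keto reductase genes on chromosome 13, related enzymes that reduce steroids and prostaglandins. This neighbourhood was looked at after the values of LOC782922 were seen. Within 200 kb of the overlap of its probes the array has 18 other probes, of which 11 were kept. None of the 11 had an adjusted or an unadjusted p under 0.05 in limma, and their differences ran from -0.29 to 0.35. Among the probes not kept, A_73_116549, named only TC338173, had 1.55 and was well above background in no animal. AKR1C3, a hydroxysteroid dehydrogenase that also makes prostaglandin F2 alpha in humans, had 0.10 ± 0.37 at its kept probe. The 3 probes of AKR1C4, which reduces steroids and bile acid precursors, had 0.06, 0.15 and 0.15. Kept probes of LOC527068, annotated as AKR1C3-like, had 0.04, 0.03 and 0.25, and 20ALPHA-HSD, a progesterone-reducing enzyme, had 0.12 ± 0.34. The difference between LOC782922 and its neighbours was not itself tested.

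**Figure D3:**
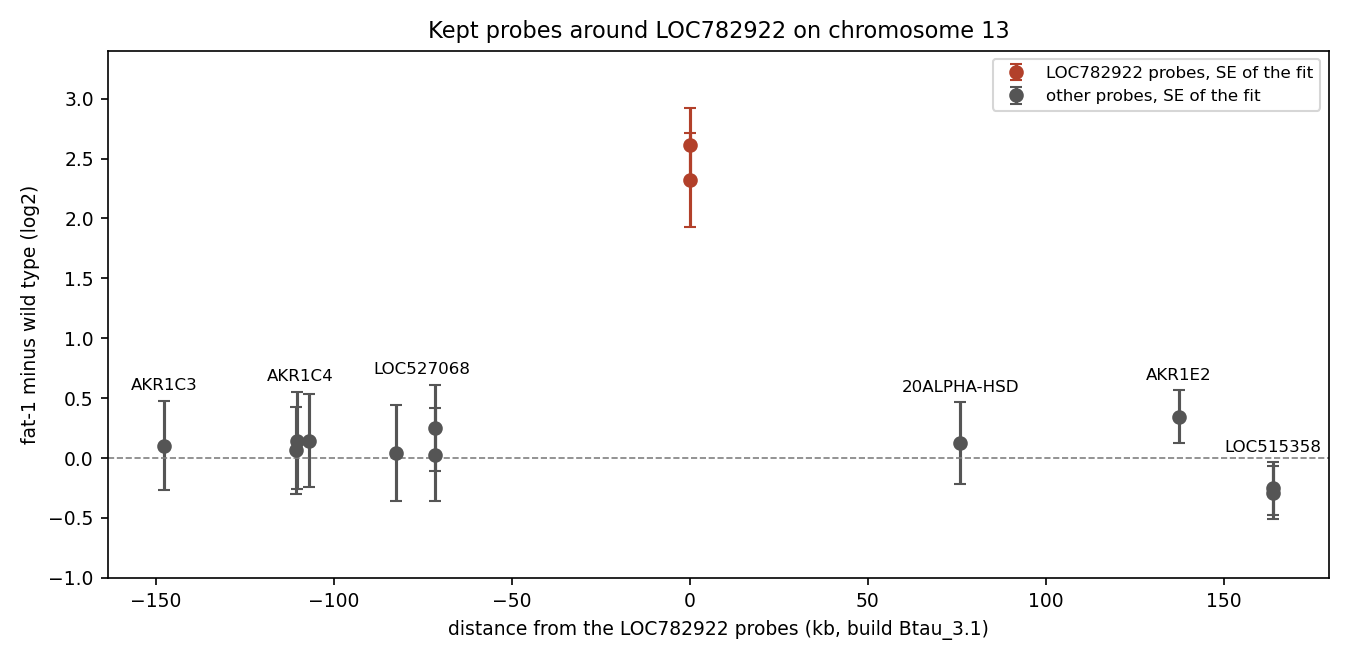
Fat-1 minus wild type difference on the log2 scale with the SE of the fit (vertical axis) of kept probes within 200 kb of the LOC782922 probes (horizontal axis, distance in kb). The LOC782922 probes stand at 2.61 and 2.32 and the other 11 between -0.29 and 0.35, in processed intensity. No wild type animal was well above background at LOC782922, so its plotted values are fitted differences and not bounds.

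Some probes of this family share sequence, which was also looked up after the values were seen. A_73_P073941 matches a LOC527068 probe at 37 of 40 aligned bases and a probe of LOC785762, dihydrodiol dehydrogenase 3, at 36 of 41. Both of those probes were well above background in no animal, with differences of -0.21 and -0.25. A_73_P168292 matched no other probe over 30 bases or more besides its overlapping partner. Whether transcripts of relatives bind the LOC782922 probes was not tested.

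The other genes of these pathways were followed in 6 lists with 71 measured genes. By limma 0 passed an adjusted p of 0.05, where 0.171% of all probes did, 0.0783% higher and 0.0932% lower. At an unadjusted p under 0.05 there were 5 higher and 6 lower, 15.5% against 12.8% of all probes, of which 6.15% were higher and 6.68% lower. Their median difference was -0.08 against -0.06 over all probes. A list's count and median are set beside those of all probes as a description.

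Of 11 measured genes in the list of epoxygenases and other epoxide hydrolases, 1 was higher and 2 were lower at an unadjusted p under 0.05, with a median of 0.20. The list is wider than its name, since it also holds fatty acid hydroxylases of the CYP4 family and POR, CYB5A and MEST. Its count and median are therefore not those of epoxygenases and epoxide hydrolases alone. The further epoxide hydrolases EPHX3 and EPHX4, picked for their role after values were seen, had differences of 0.20 ± 0.24 and 0.27 ± 0.29. A predicted transcript that the file names CYP2J2, an epoxygenase of arachidonic acid, had 1.17 ± 0.30. It was dim, and well above background in 2 of 3 wild type animals. The fatty acid hydroxylases CYP4A22 and CYP4F3, now named LOC534967, had -0.65 ± 0.24 and -0.64 ± 0.22. The adjusted p of these 3 in limma lay between 0.214 for CYP2J2 and 0.357 for CYP4A22.

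Of the 14 other prostaglandin synthases and reductases measured, 10 stood below 0, with a median of -0.42 and 2 lower at an unadjusted p under 0.05. Over all probes 44.6% stood above 0, so most probes of the array also lay below 0. PRXL2B, which makes prostaglandin F from prostaglandin H2, had -0.73 ± 0.26 (limma adjusted p = 0.351), and the aldehyde reductase AKR1A1 had -0.54 ± 0.22 (limma adjusted p = 0.375). A pair of further genes was picked for their role after values were seen. AKR1B1, the aldose reductase known as a prostaglandin F synthase of the bovine uterus, had -0.53 ± 0.23, and CBR3, the neighbour and relative of CBR1, had -0.09 ± 0.25.

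Of 4 measured genes of arachidonate release and prostaglandin H2 synthesis none had an unadjusted p under 0.05, and the median was -0.23. The smallest p values were those of PLA2G7, which cleaves oxidised phospholipids, with -0.52 ± 0.26, and of PLA2G4A, which frees arachidonic acid, with 0.59 ± 0.36. Of 8 measured genes of prostaglandin breakdown, transport and receptors, 1 was higher at an unadjusted p under 0.05 and the median was -0.01. This was PTGR2, a reductase that inactivates keto-prostaglandins, with 0.71 ± 0.28 (limma adjusted p = 0.374) and 0.70 and 0.56 at its other probes. Of 18 peroxisomal lipid enzymes, 1 was higher at an unadjusted p under 0.05 and 0 at an adjusted p under 0.05 in limma, and the median was 0.13.

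The list of glutathione conjugation held the widest differences of the lists, in both directions. It joins glutathione transferases, which take up epoxides by another route, with genes of glutathione synthesis and with reductases. Of 16 measured genes, 2 were higher and 2 lower at an unadjusted p under 0.05, with a median of -0.11. GSTM3 stood at 0.78 ± 0.03 (SD, n = 3) in fat-1 and -1.71 ± 0.91 in wild type animals, a difference of 2.49 ± 0.41 with 2.87 at its other probe. GSTT1 stood at 0.60 ± 0.53 and 2.67 ± 0.49, a difference of -2.07 ± 0.34, with -2.07, -1.64 and -2.02 at its other probes. Both had an adjusted p of 0.0778 in limma, and over the 15 other settings their adjusted p ranged from 0.00722 to 0.244 for GSTM3 and from 0.00789 to 0.225 for GSTT1. GSTO1 had -0.99 ± 0.29, and NQO1, a quinone reductase well above background in 1 of 3 wild type animals, had 0.79 ± 0.33.

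**Figure D4:**
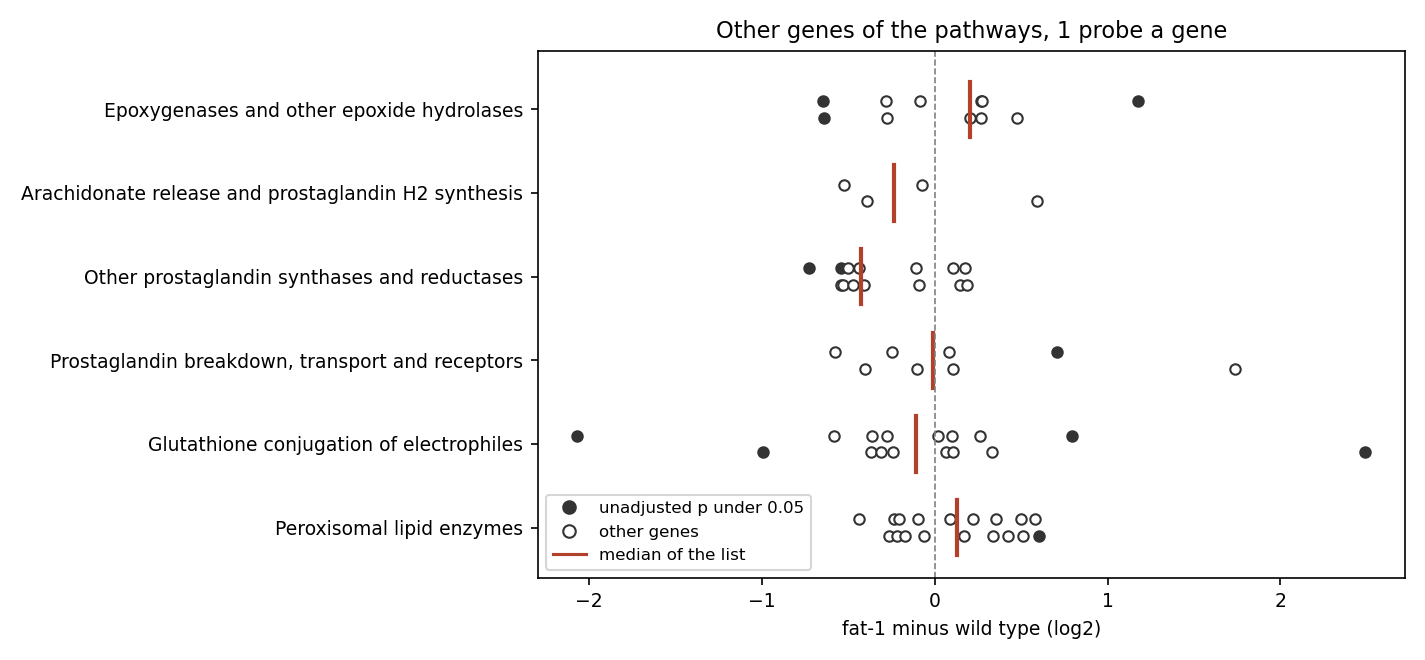
Fat-1 minus wild type difference on the log2 scale (horizontal axis) of 71 genes in 6 lists (vertical axis), 1 probe a gene. Filled points had an unadjusted p under 0.05 in limma, and red bars are list medians, from -0.42 for other prostaglandin synthases and reductases to 0.20 for epoxygenases and other epoxide hydrolases.

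Whole blood mixes cell types, and in such samples fewer cells of a type and less RNA per cell cannot be told apart. Of 23 defining markers, 4 had no named probe, among them CSF3R of neutrophils and SIGLEC8 and CLC of eosinophils. The neutrophil receptor CXCR2 was well above background in no animal and the gamma-delta T cell factor SOX13 in 2 of 3 fat-1 animals. The other 17 were well above background in all 6. At their brightest probes, all 7 measured genes of the gamma-delta T cell list stood below 0, with a median of -1.45. In limma 5 had an unadjusted p under 0.05 and 0 an adjusted p under 0.05. Their summed level, relative to the 75th percentile, was 19.5 to 51.8 in fat-1 and 55.6 to 92.2 in wild type animals. The probes of TRGC6 went both ways, with -1.45 ± 0.42 at the brightest and 0.26 ± 0.42 at the other. CD2, also in this list, had only -0.15 ± 0.25. Red cell markers had a median of 1.08 over 8 genes, 6 above and 2 below 0, with sums of 533 to 1041 in fat-1 and 98.6 to 1241 in wild type animals. The red cell genes below 0 were SLC4A1, the band 3 anion exchanger, with -1.44 ± 0.32 and well above background in no fat-1 animal, and AHSP, which stabilises alpha globin, with -0.35 ± 0.43. All 6 measured platelet markers stood above 0 (median 0.48) and 10 of 12 alpha-beta T cell markers below 0 (median -0.16). NK markers had a median of 0.34 (4 above and 2 below 0) and monocyte markers 0.27 (8 above and 2 below). B cell markers had -0.29 (2 above and 4 below) and neutrophil markers 0.05 (3 above and 2 below). The eosinophil list had 1 measured gene, CCR3, with 0.55. Over all probes 44.6% stood above 0. The part of these cell types in the differences of EPHX2, CBR1 and LOC782922 was not tested.

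The genes whose level followed a member most closely over the 6 arrays were taken from 21440 kept probes of other named genes. For EPHX2 they included VCP and TUBA3E, both with r of 0.994, and with 0.989 and 0.994 after group means were removed. For LOC782922 they were LRRC36, FAM151B and SYNE1, with r of 0.991 to 0.992 that came to 0.855 to 0.923 after group means were removed. For EPHX1 they were SULT1A1, DUSP6 and MADD (r of 0.987 to 0.988). For LOC784927 they were DNAH9, SLC22A23 and RPIA (0.988 to 0.997), and for CBR1 ATP6V1F, PSMB10 and ZNF593 (0.997 to 0.998). With 6 arrays that share group, slide and scaling such values are common: 128 to 921 probes had r over 0.9 with a member.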

How the data were processed

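The bovine arrays are of 1 colour, made by Agilent. Per the file headers and the submitters' notes on processing, Feature Extraction 10.7.1.1 gave the spot intensity; processed intensity is background-subtracted and detrended within the array, with a surrogate value for dim spots. The raw mean and local background intensity, as deposited, served the normexp alternative (offset 50). Flags of 0 or 1, as deposited, gave spots well above background and outliers. The authors' deposited value table holds log2 values with the same distribution on every array, and each column correlated with the array of its label at 0.999 or more. Which tool made it was not given in the sources used here.

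Here, spots of a probe were averaged, log2 processed intensity was reduced by the 75th percentile of each array (611 to 1065), and 32 probes with outlier flags were left out. Between 58.4% and 63.5% of spots were well above background. Arrays correlated at 0.955 to 0.984. The number of arrays limits the precision. Groups were compared by limma 3.58.1 in R 4.3.3 with Benjamini-Hochberg adjustment over 26826 probes. The fitting code was also run on simulated independent normal values with planted differences. These held no slide effect, shared array effect or floor of dim signal, so that run does not bear on those limits. Members and lists were chosen with earlier results of these data known. P-values set the difference between groups against the spread between animals within a group, as moderated by limma. They cannot separate group from slide. A gene of several probes is followed by its brightest. Of each list, up to 4 genes with the smallest unadjusted p under 0.05 are named, or 2 where none passed; EPHX3, EPHX4, CBR3, AKR1B1, the neighbours of LOC782922 and the probes that share sequence with a member were named for role, position or sequence after values were seen. The 3 probes with the highest Pearson r are named as most alike. A few genes that these rules name are not reported here. Names came from RefSeq genes of ARS-UCD2.0, and shared probe sequence from BLAST 2.17.0. Each member gene's sequence was read from the files, since no table of proteins or promoters was used here.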

Additional observations from a re-analysis of the deposited data

How the results depend on the processing

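Processing moved the size of LOC782922 and the counts of calls. EPHX1, near 0, kept the sign of its difference in 12 (A_73_P032891) and 13 (A_73_P269321) of 15 other settings. EPHX2, LOC782922, LOC784927 and CBR1 kept their sign in every setting in which they could be fitted. The other filters, the replicate block and the intensity trend leave a difference unchanged by construction, so these counts of signs include outcomes fixed in advance. LOC782922 had 0.66 with normexp at A_73_P168292, and CBR1 and LOC782922 could not be fitted where all 6 arrays had to be well above background. Without 1 array each, differences ran from -1.51 to -0.90 for EPHX2, 2.40 to 2.89 for A_73_P168292 and 1.96 to 2.62 for A_73_P073941 of LOC782922, 0.38 to 0.91 for LOC784927, -1.09 to -0.57 for CBR1 and -0.25 to 0.34 for A_73_P032891 of EPHX1. Dim signal limits LOC782922 in wild type animals and CBR1 in both groups.

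Over all probes, 46 passed an adjusted p of 0.05 in limma, 21 higher and 25 lower. This became 138 with normexp (38 higher and 100 lower), 16 in the authors' value table and also with quantile scaling (8 higher and 8 lower in each), 14 with no filter, 105 with the replicate number as a block, 125 with a trend on intensity and 1987 with array weights. The weights were taken gene by gene, chosen after limma's default (REML) stopped before converging, where 8089 passed. Without 1 array it ran from 8 (without fat-1 replicate 1) over 12 and 13 (without fat-1 replicates 2 and 3) to 55. Unadjusted calls were 3443, 8808 with array weights and 2029 to 6244 without 1 array, the highest without wild type replicate 3. Of the pathway genes, 0 passed; 2 did with normexp, with all 6 arrays above background, with the replicate block and with an intensity trend, GSTM3 and GSTT1 each time, and 8 with array weights. Without 1 array 0 or 1 passed, GSTM3 without wild type replicate 1. At an unadjusted p under 0.05 the 11 became 17 with a trend, 26 with array weights and 7 to 19 without 1 array. The cause was not tested. Same-numbered animals correlated at 0.117, 0.185 and 0.00576 in their deviations from group means, and differently numbered ones at -0.206 to 0.0768. Fat-1 replicates 1 and 2 thus correlated most with the wild type animal of their number, and fat-1 replicate 3 with wild type replicate 1 (0.0768). Whether the numbers mark pairs cannot be told from these values. They were not taken as pairs in the main fit, and the replicate block is given as another setting.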
